A study of Drosophila melanogaster with 6 samples.

Results

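The genes described here encode the proteasome of Drosophila melanogaster. They were chosen by name, as every gene symbol on the array that began with Prosalpha or Prosbeta, or with Rpn or Rpt and a number. Where several probe sets measured 1 gene, the one with the highest mean signal was kept. This gave 39 of the 10844 genes with a probe set of their own, measured by 41 probe sets. Of these, 26 were general subunits and 13 were variants, whose symbols carry a T or an R after the subunit number. The RefSeq table lists 32 general subunits and 16 variants. Those not analysed here were Prosalpha1, Prosbeta1, Rpn9, Rpn10, Rpt1 and Rpt6 among the general subunits, and Prosalpha1R, Prosbeta5R2 and Rpt6R among the variants. Prosalpha1 and Prosalpha1R share 1 probe set and so could not be told apart.

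RNA was profiled on 1-colour oligonucleotide arrays in 2 groups of 3 arrays. The first group (GSC 1 to 3) held total RNA of purified germline stem cells from ovaries of bam mutants, in which such cells accumulate because they fail to differentiate. The bam allele, the age of the flies and the number of ovaries pooled are not given in the labels. The second group (Kc 1 to 3) held total RNA of Kc, an established line of embryonic origin kept in culture, with no treatment named. Ovaries overexpressing Dpp belong to the design as well, but are not analysed here. The arrays hold no testis and no normal ovary, so every difference below is between purified stem cells and 1 cultured somatic line.

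The proteasome degrades proteins that carry ubiquitin chains. Its core particle stacks rings of alpha and beta subunits. The alpha rings form the gate and the beta rings hold the proteolytic sites, in subunits beta 1, beta 2 and beta 5. A regulatory particle caps the core. Its base carries the ring of Rpt ATPases that unfold substrates, with the Rpn1, Rpn2 and Rpn13 subunits, and its lid carries the deubiquitinase Rpn11 in a frame of other Rpn subunits. Drosophila has additional subunit genes, many of them known for expression in the male germline, which are the T and R variants. In human embryonic stem cells the counterpart of Rpn6, PSMD11, is known for its high expression.

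The authors' signals were on a linear scale and had been brought to 1 common mean on every array. Across probe sets, which are not independent replicates, the correlation of log2 signals was 0.967 to 0.977 within GSC, 0.96 to 0.973 within Kc and 0.829 to 0.86 across the groups. By the brightest probe set of each, the germ cell markers vas, nanos, zpg, piwi, aub and ovo were between 1782 and 9256 on GSC arrays. On Kc arrays they were at most 225.4. A second probe set of nanos was also higher in GSC (1283 ± 35.5 against 236.8 ± 52.9). A second one of ovo had overlapping groups (107.4 ± 70.9 against 79.9 ± 89.9). The hemocyte marker Hml did not exceed 18.7 in GSC and was at least 11344 in Kc. The 3′ to 5′ signal ratio separated the groups for all 3 control genes. It was 4.22 to 4.77 in GSC and 1.76 to 1.9 in Kc for actin, 4.63 to 6.09 and 3.46 to 3.92 for GAPDH, and 5.21 to 7.03 and 3.43 to 3.95 for eIF-4a. The geometric mean of the hybridisation controls was 2114, 2884 and 3753 on GSC 1 to 3 against 3636 to 4302 in Kc, with GSC 3 inside the Kc range. The part of either measure in the results was not tested.

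In the comparison of GSC with Kc, 1 of the 39 proteasome genes was called higher and 0 were called lower. A gene was called at an adjusted p under 0.05 by limma (lmFit and eBayes, Benjamini-Hochberg over 13966 probe sets) with a fold of at least 2. Over all probe sets 19.8% were called, 11.7% higher and 8.11% lower. The gene called was the lid subunit gene Rpn6. The 0 lower calls came from the fold minimum, since 0 members had both an unadjusted p under 0.05 and a 2-fold lower signal, while 15 were lower at an adjusted p under 0.05 alone. With the adjusted p alone, 5 of the 39 were higher and 15 lower, against 20.1% and 14.3% of all probe sets (34.5% in either direction). The general subunits were bright on the arrays. Among the 1355 probe sets at least as bright as the dimmest of them, 31.5% were called (13.3% higher, 18.2% lower), and 68.9% passed the adjusted p alone, 30.3% higher and 38.6% lower. Of the 26 general subunits 4 were higher and 15 lower. The differences are described by the adjusted p, with the fold beside it, since nearly all were under 2-fold. In such bulk RNA, fewer cells of a type and less RNA per cell cannot be told apart.

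**Figure D1:**
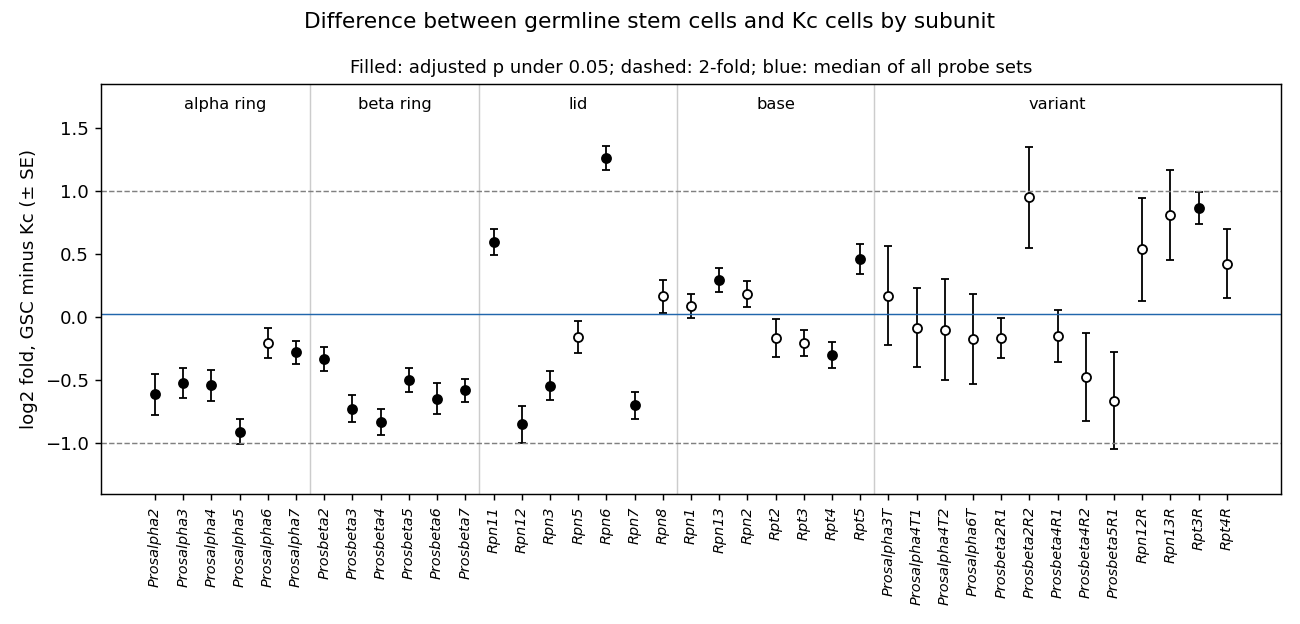
Log2 fold (GSC minus Kc, on log2 of signal plus 38, with its standard error) of all 39 proteasome genes, ordered by position in the complex. Filled points had an adjusted p under 0.05, dashed lines mark 2-fold and the blue line the median of all probe sets. All 12 core genes lie below 0 with the deposited scaling (9 with the hybridisation controls), while lid and base genes lie on both sides and Rpn6 alone passes the upper dashed line.

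The classes of subunits are described by their counts and medians. All 12 genes of the core had a negative log2 fold, from -0.91 to -0.21, against 10 with quantile normalization and 9 with scaling to the hybridisation controls. By the adjusted p alone 11 of them were lower in GSC, and in the same 11 every GSC array lay below every Kc array. Over all probe sets 19.7% had all GSC arrays below all Kc arrays, and over the bright ones 42.4%. Of the 14 genes of the regulatory particle 4 were higher and 4 lower by the adjusted p, and the arrays did not overlap for 5 in each direction (25.7% of all probe sets and 34.5% of the bright ones were higher without overlap). The median log2 fold was -0.56 in the core, -0.16 in the lid and 0.09 in the base, beside 0.03 over all probe sets and -0.10 over the bright ones. These medians describe the measured members and were not tested against each other.

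How far below Kc the core lay depended on how the arrays were scaled. Scaling to the hybridisation controls moved the median of all probe sets to 0.32. The core median was then -0.11, which is -0.43 relative to all probe sets, and 0 of the 12 core genes passed the limma test (0 also at an unadjusted p under 0.05). Of all probe sets 6.19% were lower by the adjusted p in this setting. This scaling divides the GSC arrays by unlike factors, since their controls were at 2114, 2884 and 3753, and so also spreads them within the group. The part of that spread in the adjusted p-values of this setting was not tested. With quantile normalization the core median was -0.24 and 3 of the 12 passed (8 at an unadjusted p under 0.05). With scaling to the median it was -0.69 and 11 passed. Lower by the adjusted p were 15.8% of all probe sets with quantile normalization and 16.4% with scaling to the median. The core median was below that of the regulatory particle by 0.53 on the log2 scale with the deposited scaling. A single factor per array shifts all bright genes alike. The scalings by such a factor thus could not change this distance, which was 0.53 with either. Quantile normalization could change it, and gave 0.40.

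**Figure D2:**
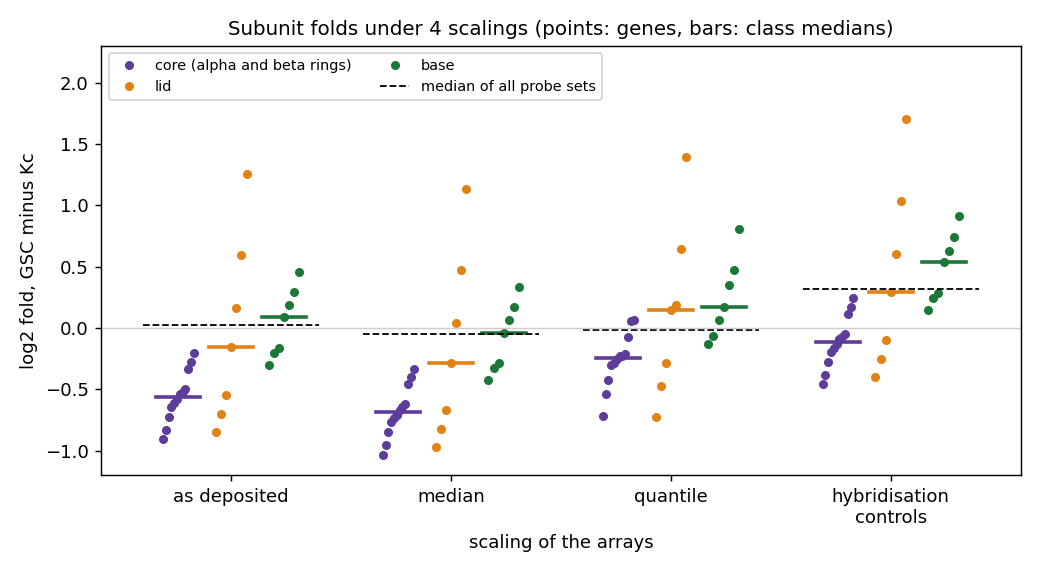
Log2 folds (GSC minus Kc) of the 26 general subunits under 4 scalings of the arrays, with points for genes, coloured bars for class medians and a dashed line for the median of all probe sets. The whole set shifts up with the hybridisation controls. The core median is below the lid and base medians in all 4, an order that scaling by a single factor per array could not change.

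In the alpha ring, the gate of the core, 5 of 6 genes were lower in GSC with the deposited scaling, and Prosalpha6 (also with quantile normalization) and Prosalpha7 turned positive with the hybridisation controls. Prosalpha5 had the largest difference. GSC 1 to 3 gave signals of 2857.9, 2675.4 and 3169.5, whereas Kc 1 to 3 gave 5646.5, 5165.9 and 5592.7. The highest GSC value thus lay well below the lowest Kc value. The means were 2901 ± 250 and 5468 ± 263 (SD, n = 3), a Kc level 1.89 times that of GSC, with a log2 fold of -0.91 ± 0.10 (SE, limma adjusted p = 6.98e-05). It was called lower (log2 fold -1.03) with scaling to the median and had an adjusted p of 0.196 with the hybridisation controls.

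Prosalpha2 had signals of 5658.4, 6989.6 and 7850.9 in GSC and of 12781.1, 10044.4 and 8671.4 in Kc. Here the groups did not overlap either, but the gap between GSC 3 and Kc 3 was small. The log2 fold was -0.61 ± 0.16 (limma adjusted p = 0.015), and the adjusted p was 0.244 with quantile normalization and 0.689 with the hybridisation controls. Prosalpha3 (4045 ± 268 in GSC and 5855 ± 851 in Kc) and Prosalpha4 (3524 ± 501 and 5126 ± 452) had log2 folds of -0.52 and -0.54 with no overlap between groups. Both passed with the deposited scaling, and neither did with quantile normalization (adjusted p = 0.0676 and 0.0823) or with the hybridisation controls.

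Prosalpha7 differed less, with 3097 ± 110 in GSC and 3766 ± 114 in Kc. Its log2 fold of -0.28 (adjusted p = 0.0374) became 0.17 with the hybridisation controls. With quantile normalization it was -0.08 (adjusted p = 0.559). Prosalpha6 was the member of the ring whose groups overlapped, with 4174 ± 179 against 4857 ± 762 (log2 fold -0.21, adjusted p = 0.234). A second, dim probe set of Prosalpha7, at 33.2 in GSC and 36.3 in Kc, had a log2 fold of -0.06 and was not called.

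In the beta ring, which holds the proteolytic sites, all 6 measured genes were lower in GSC with no overlap between groups, and Prosbeta2 alone turned positive with quantile normalization or the hybridisation controls. Prosbeta4, a subunit without a proteolytic site, had signals of 7590, 8734.3 and 9360.9 in GSC and of 15730, 14545.3 and 15416.6 in Kc. Every Kc array was above every GSC array by more than the spread within either group. The log2 fold was -0.83 ± 0.10 (limma adjusted p = 0.000151), and -0.38 with the hybridisation controls (adjusted p = 0.261). Prosbeta3, also without a proteolytic site, had 4785.4, 4574.8 and 4642.7 in GSC and 8775, 6906.3 and 7665.4 in Kc. Its GSC arrays lay close together and its Kc arrays apart, with Kc 1 the highest. The log2 fold was -0.73 ± 0.11 (limma adjusted p = 0.000475).

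Both measured catalytic subunit genes were among the 6. Prosbeta5, which carries the chymotrypsin-like activity, had 4711 ± 263 in GSC and 6672 ± 422 in Kc (a log2 fold of -0.50, adjusted p = 0.00234). Prosbeta2, which carries the trypsin-like activity, had 7521 ± 411 and 9487 ± 700 (log2 fold -0.33, adjusted p = 0.0229), the smallest fold of the ring, and it became 0.06 with quantile normalization and 0.12 with the hybridisation controls. The measured catalytic genes (Prosbeta1 was not analysed) had the 2 smallest folds of the ring. Prosbeta6 (log2 fold -0.65, adjusted p = 0.00252) and Prosbeta7 (-0.58, adjusted p = 0.000626) lay between the catalytic genes and Prosbeta4. Prosbeta5 (-0.50 ± 0.10, SE) was close to Prosbeta7 (-0.58 ± 0.09). Catalytic and other genes of the ring were not tested against each other. A second probe set of Prosbeta6, at 213.6 ± 71.5 in GSC and 162 ± 40.8 in Kc, had a log2 fold of 0.31 and an adjusted p of 0.484, so the lower level was seen with the bright probe set only.

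**Figure D3:**
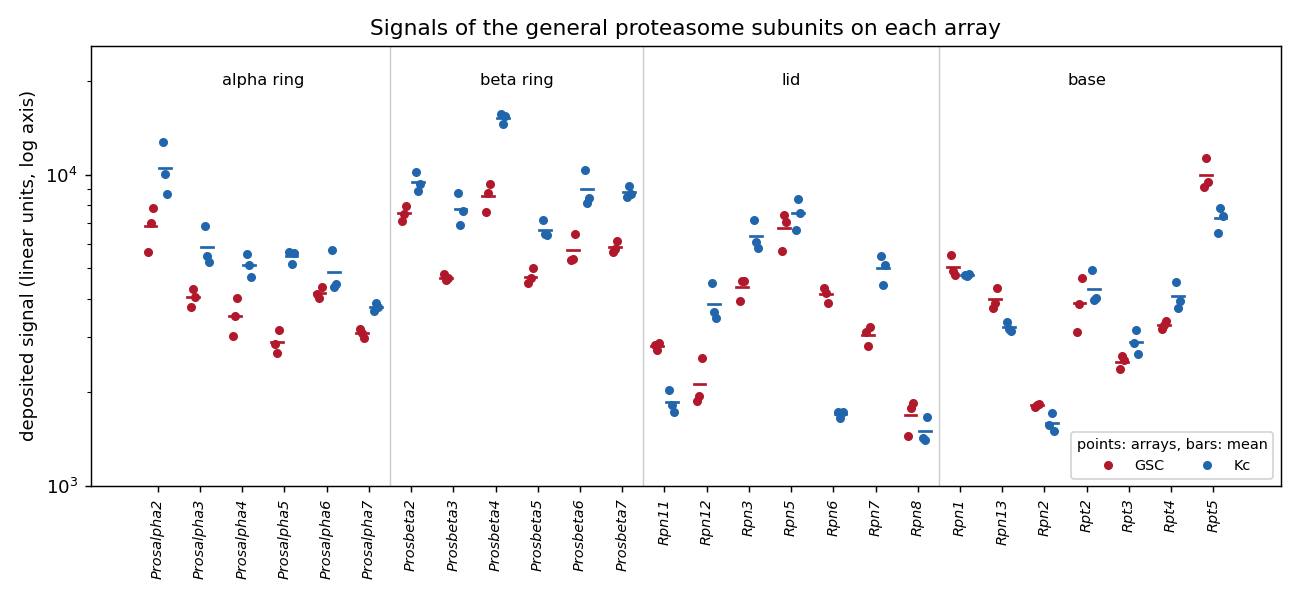
Deposited signals (log axis) of the 26 general subunits, with 3 points for the GSC arrays, 3 for the Kc arrays and a bar for each mean. Levels are comparable within a gene and not between genes. In the alpha and beta rings the GSC points lie below the Kc points for every gene except Prosalpha6, whereas Rpn6 and Rpn11 of the lid show the opposite order.

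The lid, the part of the regulatory particle that removes ubiquitin chains, had genes on both sides. Rpn6, a scaffold subunit of the lid that also touches the alpha ring, had signals of 4337.3, 4164.8 and 3881.7 in GSC and of 1731.9, 1646.6 and 1727.4 in Kc. All GSC arrays were more than 2-fold above all Kc arrays, and the values within each group were close. The means were 4128 ± 230 and 1702 ± 48.0 (SD, n = 3), a ratio of 2.43. The log2 fold was 1.26 ± 0.10 (limma adjusted p = 6.52e-06), and it ranged from 1.14 to 1.70 over 17 other ways of scaling, transforming, filtering or leaving out arrays. Rpn6 remained called in all 17, and it was no longer called when the fold minimum was raised to 4.

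Rpn11, the metalloprotease that cuts ubiquitin chains off substrates, was also higher in GSC. It had 2818 ± 76.7 against 1859 ± 155 (log2 fold 0.59, adjusted p = 0.00135), with all GSC arrays above all Kc arrays. The fold was under 2 except with the hybridisation controls (log2 fold 1.04), and its adjusted p stayed under 0.05 in all 17 alternatives. Rpn8, which pairs with Rpn11 in the lid, had 1686 ± 213 and 1497 ± 143 (log2 fold 0.16, adjusted p = 0.4), and its groups overlapped.

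The other lid genes went the opposite way or did not pass. Rpn12 had signals of 1877.9, 1940.8 and 2570.6 in GSC and of 4484.3, 3622 and 3453.2 in Kc. The groups were apart, with GSC 3 nearest to Kc. The log2 fold was -0.85 ± 0.15 (limma adjusted p = 0.00145). Rpn7 (log2 fold -0.70, adjusted p = 0.000755) and Rpn3 (-0.54, adjusted p = 0.00400) were lower as well, and Rpn5 had overlapping groups (-0.16, adjusted p = 0.414). All measured lid genes but Rpn8 and Rpn11 belong to 1 structural family, the subunits with a PCI domain. The highest and the lowest folds of the lid, of Rpn6 and Rpn12, both lay in this family, which holds most of the measured lid genes. With the hybridisation controls Rpn12, Rpn7 and Rpn3 were at -0.40, -0.25 and -0.09 and none of them passed, while Rpn6 and Rpn11 were called higher. Genes of the lid thus passed in both directions with the deposited scaling, and with the hybridisation controls only on the higher side.

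In the base, the ATPase Rpt5 had signals of 9150.5, 11348.9 and 9480.3 in GSC and of 6513, 7844.9 and 7386 in Kc. Its GSC arrays were all above its Kc arrays, with a log2 fold of 0.46 ± 0.12 (limma adjusted p = 0.0116). Scaling to the median left it at 0.33 (adjusted p = 0.0968). Rpt4, another ATPase of the same ring, had 3195, 3296.3 and 3378.6 in GSC and 4539.2, 3732 and 3939.3 in Kc. This was the opposite order, again with no overlap, but the difference was small and passed narrowly (log2 fold -0.30 ± 0.10, limma adjusted p = 0.0477). It became 0.15 with the hybridisation controls.

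The remaining ATPases did not pass. Rpt2 had a log2 fold of -0.17 (adjusted p = 0.478) and overlapping groups. Rpt3 had 2508 ± 123 and 2901 ± 261 (log2 fold -0.20, adjusted p = 0.179), with all GSC arrays just below all Kc arrays. Among the other base genes, the ubiquitin receptor gene Rpn13 was slightly higher in GSC (3976 ± 305 against 3235 ± 106, log2 fold 0.29, adjusted p = 0.0415), a difference that no longer passed with scaling to the median (adjusted p = 0.304). The scaffold genes Rpn1 (log2 fold 0.09, adjusted p = 0.555) and Rpn2 (0.19, adjusted p = 0.219) were at 1.06 and 1.14 times the Kc level. Rpn1 turned to -0.04 with scaling to the median.

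The highest and lowest arrays within a group were counted over the members. Kc 1 was the highest Kc array for 10 of the 12 core genes (83.3%) and for 8 of the 14 regulatory particle genes (57.1%), among them 3 of the 7 base genes (42.9%), against 41.3% of all probe sets and 49.0% of the bright ones. The shares of the regulatory particle and the base were thus near the background. GSC 1 was the lowest GSC array for 18 of the 26 general subunits (69.2%), against 33.0% and 50.6%. The coefficient of variation within a group ran from 2.3 to 16.2% in GSC and from 3.02 to 19.9% in Kc for the core. Without Kc 1, 11 of the 12 core genes were still lower by the adjusted p alone, and 9 were without GSC 1. Of all probe sets 13.7% and 12.9% were lower in these 2 settings. Leaving out any 1 array gave 9 to 11 core genes, beside 12.1 to 13.7% of all probe sets.

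The variants presented another picture, since 10 of the 13 were below the median of all deposited values on every array. No deposited detection call says whether such signals were above background. The 25th percentile of all deposited values was 38 and their median 162, and 5 variants had at least 3 of their 6 arrays below 38. These were Prosalpha3T, Prosbeta2R1, Prosbeta4R1, Prosbeta4R2 and Rpn12R. Of the 13 variants, 1 was higher in GSC by the adjusted p alone and 0 were lower, and 0 were called at 2-fold by limma (3 were higher and 0 lower at an unadjusted p under 0.05). Over all probe sets 20.1% were higher and 14.3% lower by the adjusted p alone, and 19.8% were called. The median log2 fold of the 13 was -0.08.

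**Figure D4:**
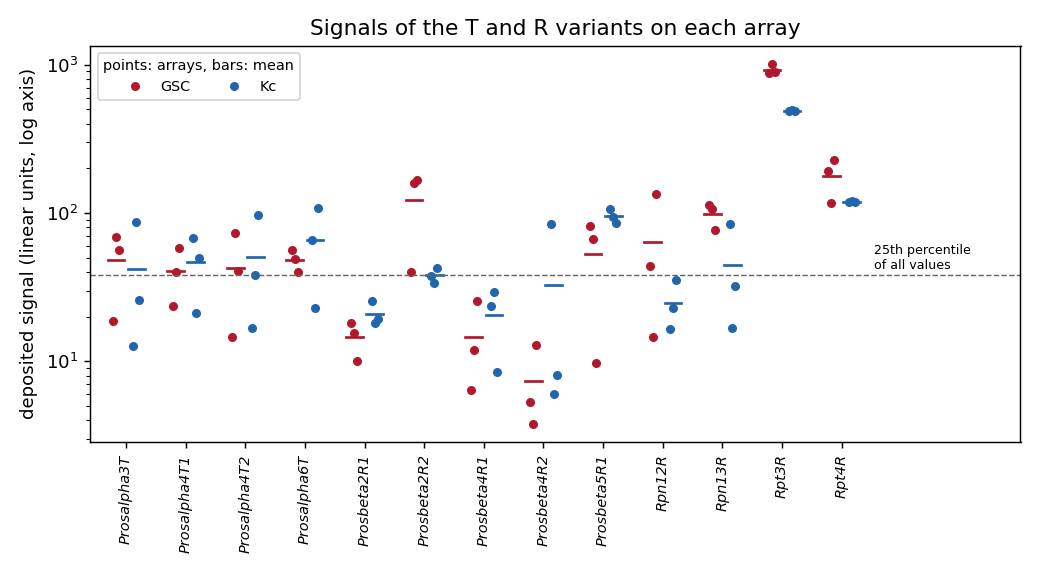
Deposited signals (log axis) of the 13 T and R variants, with 3 points for the GSC arrays, 3 for the Kc arrays and a bar for each mean. The dashed line marks the 25th percentile of all deposited values (38). Rpt3R alone has every array above the median of all values (162), and its GSC arrays lie above its Kc arrays.

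Rpt3R, a relative of the ATPase gene Rpt3, was the exception. Its signals were 873.2, 1011 and 895.1 in GSC and 490.1, 495.2 and 485.1 in Kc. The 3 Kc values were nearly equal and every GSC value was far above them. The means were 926.4 ± 74.1 and 490.1 ± 5.05 (SD, n = 3), a ratio of 1.89, with a log2 fold of 0.87 ± 0.13 (limma adjusted p = 0.000477). It passed the adjusted p in all 17 alternatives, with log2 folds from 0.71 to 1.29, and it was called at 2-fold with the hybridisation controls.

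Rpt4R, the counterpart for Rpt4, had 190.8, 116.3 and 227.3 in GSC and 119.1, 119.7 and 118.7 in Kc. GSC 2 lay below all Kc arrays, so the groups overlapped (log2 fold 0.42 ± 0.27, limma adjusted p = 0.286). The other regulatory particle variants were dimmer. Rpn13R had 114.1, 106.2 and 76.9 in GSC and 83.9, 16.9 and 32.2 in Kc (a log2 fold of 0.81, adjusted p = 0.117). Its groups overlapped through GSC 3 and Kc 1, and without Kc 1 the gene was called (1.13, adjusted p = 0.026). Rpn12R had 43.8, 14.5 and 134.4 in GSC and 16.5, 22.8 and 35.1 in Kc, where GSC 1 and GSC 3 were above every Kc array and GSC 2 was below them all (log2 fold 0.54, adjusted p = 0.374).

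Among the beta ring variants, Prosbeta2R2 had 40, 158.9 and 167 in GSC and 37.7, 33.5 and 42.7 in Kc. GSC 1 lay within the Kc range and the other GSC arrays far above it (log2 fold 0.95 ± 0.40, limma adjusted p = 0.102). Without GSC 1 the gene was called (1.40, adjusted p = 0.00937), and it was also called with the hybridisation controls (1.19, adjusted p = 0.0279). Prosbeta5R1 had 81.3, 66.9 and 9.7 in GSC and 105.7, 94.7 and 86.1 in Kc. Its groups were apart, but its 2 higher GSC values were close to Kc and the difference did not pass (log2 fold -0.66, adjusted p = 0.232).

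The remaining beta variants had almost no signal. Prosbeta2R1 had 18.2, 15.6 and 10 in GSC and 25.4, 18.1 and 19.2 in Kc. Prosbeta4R1 had 6.4, 12 and 25.6 in GSC and 23.5, 29.5 and 8.5 in Kc. Prosbeta4R2 had 5.3, 3.8 and 12.9 in GSC and 83.7, 6 and 8.1 in Kc. The groups of these genes overlapped, all their values but that of Prosbeta4R2 on Kc 1 were below 38, and adjusted p-values were 0.503, 0.649 and 0.356.

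The alpha ring variants, the genes with a T in the name, were below the median of all values on every array as well. Prosalpha3T had 18.7, 68.7 and 56.5 in GSC and 12.7, 86.3 and 26 in Kc. Prosalpha4T1 had 23.7, 39.9 and 58.3 in GSC and 68.3, 21.2 and 49.7 in Kc. Prosalpha4T2 had 14.7, 73.3 and 40.6 in GSC and 16.9, 38.3 and 97.2 in Kc. In each of these the groups overlapped. Prosalpha6T, which in flies is known to be needed for male fertility, had 56.4, 48.9 and 40.2 in GSC and 65.4, 22.9 and 108.4 in Kc. The adjusted p-values of the 4 genes were between 0.772 and 0.891, and their mean log2 folds were between -0.17 and 0.17.

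Markers of spermatocytes and spermatids were looked at beside the variants, since their known site of expression is the testis. Of 13 such markers, 3 were called higher in GSC and 0 lower, by the same rule as above, beside 11.7% and 8.11% of all probe sets. The 3 were bol (1169 ± 29.3 against 175.2 ± 14.6), tomb (270 ± 40.3 against 52.1 ± 23.7) and aly (138.3 ± 48.6 against 38.8 ± 13.1). A second, dim probe set of bol had 51.9 ± 45.3 and 38.3 ± 7.68. Its groups overlapped (log2 fold 0.12, limma adjusted p = 0.862), so the higher level of bol was seen with the bright probe set only. The marker mia lay the other way below 2-fold, at 279 ± 17.9 against 513.6 ± 84.0 (log2 fold -0.79, adjusted p = 0.00497). A second, dim probe set of mia had overlapping groups (log2 fold 0.43, limma adjusted p = 0.461), as had topi, Mst87F and Mst84Da. The arrest genes comr, can, sa and nht and the spermatid genes dj and ProtB had group means of at most 42.6 in either group. The summed signal of the list was 2432 to 2908 on GSC arrays and 1353 to 1696 on Kc arrays, and bol alone made up 1169 of it on average in GSC and 175.2 in Kc. Of 8 measured markers of ovarian somatic cells 0 were called by limma (0 at an unadjusted p under 0.05), and their summed signal was 586 to 646 in GSC and 548 to 613 in Kc. The part of such cells in the variants' values was not tested.

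Each variant was also set against its general partner, as the difference between the 2 genes' log2 folds, which a factor common to all genes of an array leaves in place for bright genes. For Rpt3R against Rpt3 the log2 difference within an array was -1.46 to -1.34 on GSC arrays and -2.59 to -2.36 on Kc arrays. The fold of Rpt3R thus exceeded that of Rpt3 by 1.07 ± 0.08 (SE), and by 0.84 to 1.13 over 13 alternatives. For Rpt4R against Rpt4 the excess was 0.72 ± 0.25, and for Prosbeta2R2 against Prosbeta2 it was 1.28 ± 0.42. In an exact two-sided permutation test over the 6 arrays these 3 pairs had p = 0.1, the lowest value possible with 3 arrays in each group, and 0.217 after adjustment over the 13 pairs. Over the alternatives the excess of Rpt4R ran from 0.40 to 0.95 and that of Prosbeta2R2 from 0.80 to 1.75. In 6 of the 13 pairs every GSC array exceeded every Kc array, a count that was 3 with a pseudocount of 1, 2 with quantile normalization and 3 with the hybridisation controls. Of single probe sets 25.7% had all GSC arrays above all Kc arrays, and no such share was computed for differences between genes. The remaining 3 of the 6 were Rpn12R (1.39), Prosbeta4R1 (0.68) and Prosalpha4T1 (0.46). Prosbeta4R1 and Prosalpha4T1 themselves had log2 folds of -0.15 and -0.08, and their partners had -0.83 and -0.54. A dim variant that does not move gives a positive value when its partner is lower, so the count does not describe the variants alone. In 5 of the 6, all but Rpt3R, the variant's own groups overlapped, and the value includes the fold of the general partner.

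Genes that act around the proteasome were examined as 3 lists. Of 19 genes of assembly factors, activators, shuttle receptors and regulators, 4 were called higher in GSC and 2 lower (median log2 fold 0.18), beside 11.7% and 8.11% of all probe sets. With the hybridisation controls 6 were higher and 0 lower, where 2810 and 685 of all 13966 probe sets were. The 2 that fell act on the core. Pomp, the chaperone of core assembly, had 2215 ± 425 in GSC and 5072 ± 912 in Kc (a log2 fold of -1.18, adjusted p = 0.000348). PI31, a proteasome-binding regulator, had 574.9 ± 197 and 1369 ± 171 (log2 fold -1.24, adjusted p = 0.00130). Both calls ended with the hybridisation controls (-0.73 with an adjusted p of 0.0538, and -0.81). REG, the 11S activator of the core, had a log2 fold of -0.16 and was not called.

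The 4 that rose were maf-S, CG8858, Npl4 and Rad23. The small Maf gene maf-S, whose product pairs with the transcription factor cnc, had 2094 ± 72.0 in GSC and 682 ± 62.7 in Kc (a log2 fold of 1.57, adjusted p = 5.32e-06). CG8858 had 612.3 ± 61.8 and 194.7 ± 60.2 (1.52). Npl4, which with Ufd1 and the ATPase TER94 hands ubiquitinated proteins to the proteasome, had 4388 ± 220 and 1923 ± 435 (1.20). The shuttle receptor gene Rad23 had 2886 ± 120 and 1252 ± 83.9 (1.18). These 4 were called under all 16 alternatives that kept the fold minimum. Ufd1 was just below 2-fold (0.99, adjusted p = 0.00180), and TER94 was not called (0.27). Sem1, a small lid subunit that the naming rule did not take, was higher below 2-fold (0.50, adjusted p = 0.00273).

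The fly counterpart of the Nrf factors, cnc, which is known to drive proteasome genes, had probe sets that disagreed. The brightest had 1391 ± 208 in GSC and 796.5 ± 124 in Kc (a log2 fold of 0.78, adjusted p = 0.00344). Another had a log2 fold of -0.95 (adjusted p = 0.00221), and 2 dimmer ones did not pass. With the deposited scaling none of the 4 was called at 2-fold, and which transcripts each detects is not known here.

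**Figure D5:**
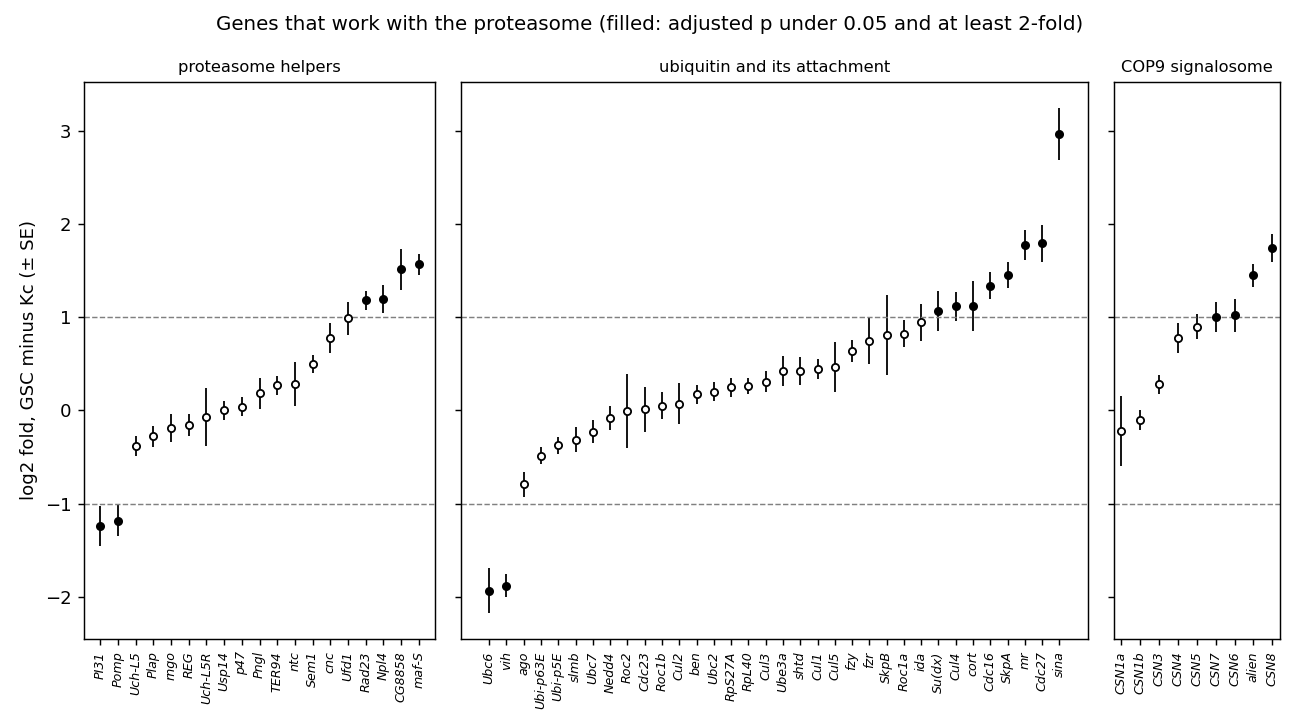
Log2 folds (GSC minus Kc, with standard errors) of 19 proteasome helpers, 34 genes of ubiquitin and its attachment and 9 COP9 signalosome genes, each list sorted by value. Filled points were called at an adjusted p under 0.05 and 2-fold. Most filled points lie above 0, and Pomp, PI31, Ubc6 and vih are the filled points below it.

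Of 34 genes of ubiquitin and its attachment, 8 were called higher and 2 lower (median log2 fold 0.37), beside 11.7% and 8.11% of all probe sets. With the hybridisation controls 12 were higher and 2 lower, where 2810 and 685 of all 13966 probe sets were. With scaling to the median 6 were higher and 2 lower, where 1398 and 1312 of all probe sets were. The largest was the RING ligase gene sina, at 3730 ± 515 in GSC and 470.6 ± 199 in Kc (a log2 fold of 2.97, adjusted p = 2.72e-05). The anaphase-promoting complex genes Cdc27 (1.80) and mr (1.78) came next, and Cdc16 of the same complex was also called (1.34). SkpA, the adaptor of the SCF ligases, had 8069 ± 161 and 2961 ± 564 (1.45). The other 3 were Su(dx), cort and Cul4, named because they complete the count. The 2 called lower were ubiquitin-conjugating enzyme genes. Ubc6, the Rad6 counterpart, had 91.1 ± 21.3 and 459 ± 102 (log2 fold -1.94), and vih, which serves the anaphase-promoting complex, had 556.8 ± 66.1 and 2146 ± 33.6 (-1.88). The 4 named genes with the largest rise and both that fell were called under all 16 alternatives, the hybridisation controls among them. Cdc16 was too, whereas Su(dx) was called in 12 of the 16, cort in 14 and Cul4 in 14. Without Kc 1 both Su(dx) and Cul4 were lost, and without Kc 2 cort was. A second probe set of Su(dx) was not called (log2 fold 0.56, limma adjusted p = 0.0648).

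Ubiquitin itself is encoded by polyubiquitin genes and by fusions to ribosomal proteins. The polyubiquitin genes Ubi-p63E (log2 fold -0.48, adjusted p = 0.00276) and Ubi-p5E (-0.37, adjusted p = 0.00866) were lower in GSC by the adjusted p alone, but with the hybridisation controls they were at -0.03 (adjusted p = 0.944) and 0.08 (adjusted p = 0.852). The fusion genes RpL40 (0.26, adjusted p = 0.0485) and RpS27A (0.25, adjusted p = 0.0852) had positive folds, of which the first passed. With quantile normalization or the hybridisation controls both passed, and with scaling to the median neither did. How far the probe sets of these near-identical ubiquitin repeats tell the genes apart was not tested.

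The COP9 signalosome is built on the same plan as the lid, with PCI subunits around a metalloprotease, and it takes the ubiquitin-like Nedd8 off cullins. Of its 9 genes 4 were called higher in GSC and 0 lower (0 lower also at an unadjusted p under 0.05 in limma), and 6 were higher by the adjusted p alone. Over all probe sets 11.7% were called higher and 20.1% were higher by the adjusted p alone, and over the bright ones 13.3% and 30.3%. With the hybridisation controls 6 were called higher and with scaling to the median 2. Of all 13966 probe sets these scalings called 2810 and 1398 higher. The median log2 fold was 0.90. CSN8 had 2176 ± 161 in GSC and 628.3 ± 122 in Kc (a log2 fold of 1.75, adjusted p = 1.47e-05), and alien, which encodes CSN2, had 1860 ± 60.2 and 658.6 ± 67.0 (1.45). These 2 were called under all 16 alternatives. CSN6 (1.02) and CSN7 (1.00) sat at the fold minimum and were both lost without GSC 2, without GSC 3, without Kc 2, without Kc 3, with scaling to the median and with a pseudocount of 162, the median of all values, and CSN6 was also lost with quantile normalization. The metalloprotease gene CSN5, the relative of Rpn11, had a log2 fold of 0.90 (adjusted p = 0.000479). The lid genes of the proteasome, by comparison, had 2 of 7 higher and 3 of 7 lower by the adjusted p alone. That was near the shares of the bright probe sets, 30.3% and 38.6%. The difference between the complexes was not tested.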

How the data were processed

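What the authors deposited is a single linear intensity for each probe set on each array. The submitters' processing notes name MAS5, without a version or settings. Trimmed by 2% of values at either end, the mean was close to 500 on each of the 6 arrays, and the arrays were therefore not scaled again. The number of arrays limits the precision. Of 14010 probe sets, 44 controls were left out. Probe sets were named from the platform annotation, and all 39 members kept their symbol in the RefSeq table. Signals were transformed as log2(signal + 38), 38 being the 25th percentile of all values, so folds of dim genes are understated. Groups were compared with limma 3.58.1 in R 4.3.3 (intensity trend, robust, two-sided), and the procedure was tested on simulated data. The labels do not say whether arrays within a group stem from separate cultures or flies. The p-values thus cover only the spread between these arrays, which may be technical. Alternatives covered scaling, pseudocount, dim probe sets, the variance prior, the fold minimum, the replicate block and each array left out.

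Lid genes were Rpn3, 5, 6, 7, 8, 9, 11 and 12, and base genes the Rpt genes with Rpn1, 2, 10 and 13. Values on every array are given for called members, all variants and the 2 largest folds of each general class. From each list the 4 called genes with the largest folds are named, by group means or log2 folds only. Genes named beyond that were chosen after their values were seen. Lists were matched by symbol or synonym. The members and lists were chosen with earlier results of these data known. Columns with no sample numbered 0.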

Additional observations from a re-analysis of the deposited data

How the results depend on the processing

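Most members differed by less than 2-fold, so counts at that minimum moved with the settings. From 1 higher and 0 lower, the members called were 3 and 7 at a fold of 1.5, 0 and 0 at a fold of 4, 5 and 15 with no fold minimum, 5 higher with the hybridisation controls (Rpn6, Rpn11, Rpt3R, Prosbeta2R2, Rpn13R), and 1 lower (Prosalpha5) with scaling to the median or with treat. Leaving out 1 array gave 1 to 2 higher, the second being Prosbeta2R2 without GSC 1 and Rpn13R without Kc 1. Probe sets called were 2765 (59.1% higher), 1690 with the pseudocount at the median, 4267, 770 and 4813 at folds of 1.5, 4 and none, and 3495 (80.4% higher) with the hybridisation controls. Pairs with all GSC arrays above Kc went from 6 to 3 with a pseudocount of 1, 2 with quantile normalization and 3 with the hybridisation controls. The cause of these moves was not tested.

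With the hybridisation controls the sign of the log2 fold turned for Prosalpha4T1 (0.13), Prosalpha4T2 (0.0826), Prosalpha6 (0.24), Prosalpha6T (0.10), Prosalpha7 (0.17), Prosbeta2 (0.12), Prosbeta2R1 (0.0047), Rpn5 (0.29), Rpt2 (0.28), Rpt3 (0.24) and Rpt4 (0.15). With quantile normalization it turned for Prosalpha6 (0.0573), Prosbeta2 (0.0649), Rpn5 (0.19) and Rpt2 (0.0687), and with scaling to the median for Rpn1 (-0.0379). Leaving out 1 array also turned dim variants, with ranges of -0.10 to 0.54 for Prosalpha3T, -0.32 to 0.10 for Prosalpha4T1, -0.39 to 0.26 for Prosalpha4T2, -0.51 to 0.12 for Prosalpha6T and -0.73 to 0.004 for Prosbeta4R2.

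The labels do not say whether same-numbered arrays of the groups belong together. Deviations from the group means correlated at -0.03, 0.04 and -0.01 between same-numbered arrays, and at -0.06 to 0.05 between the others. With so few arrays such values cannot settle whether the arrays are paired. With the replicate block 2739 probe sets were called, with 1 member higher and 0 lower. By the adjusted p alone 9 of 12 core genes were then lower, beside 13.1% of all probe sets.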
